A study of Caenorhabditis elegans with 15 samples.

Results

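Lethargus of the last larval stage of Caenorhabditis elegans was set against the midpoint between the stage before it and the stage after it, gene by gene. The quantity is the mean of the 5 L4-lethargus arrays minus the average of the L4 mean and the Adult mean, in log2 units, for each of 22548 probe sets that are not array controls. The comparison uses all 15 arrays of the series, 5 per stage, and 17118 named genes were each read from a single probe set. A gene whose level changes by equal log2 steps through the 3 stages has a difference of 0, and the midpoint is the geometric mean of the L4 and Adult signals. The groups were late L4 animals, moving and feeding, taken 42 h after feeding of arrested first-stage larvae; L4-lethargus animals, taken at 45 to 50 h, when their pumping had been at rest for 30 to 40 min; and young adults, whose age was not stated in the labels read here. All were wild-type N2 (Bristol) hermaphrodites synchronised by arrest without food, fed the bacterial strain DA837, grown at 20 °C and collected by hand in batches of 20 at 22.5 °C. Each array held total RNA of 1 pool of whole animals. The lethargus animals had also been moved to a fresh bacterial lawn and held at room temperature, and quiescence, stopped feeding, molt, age and handling cannot be told apart in this design. In whole animals, fewer cells of a type and less RNA per cell cannot be told apart. The stated RNA yield was 22.3 ± 7.0 ng in L4, 18.6 ± 3.5 ng in lethargus and 75.3 ± 10.3 ng in Adult (mean ± SD). Array signals are relative to the total RNA of a pool, so a lower signal in Adult need not mean less transcript per animal.

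C. elegans grows through a series of molts, each marked by a lethargus in which feeding and movement stop while a new cuticle is made beneath the old one, which is then shed. The body cuticle is built largely of collagens secreted by the epidermis, and a transient precuticle matrix of lipocalins, zona pellucida proteins and related proteins is laid down first. The lining of the pharynx is renewed at the same time from a different set of disordered, glutamine- and asparagine-rich or chitin-binding proteins. The germ line grows through the same hours, and oocytes and yolk are made as the animal becomes an adult.

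The 3 stages did not have the same array level. The median of the probe sets was 7.47 ± 0.05 in L4, 7.51 ± 0.02 in lethargus and 7.26 ± 0.04 in Adult (mean ± SD of 5 arrays, log2), so that lethargus lay 0.15 above the midpoint of the array medians. The median of all genes' own differences was -0.07, and it moved to -0.21 when every array was centred on its median. Lethargus replicate 1 and Adult replicate 2 correlated least with their own stages, at a mean r of 0.987 each. Without both arrays, an alternative chosen after the data were seen, 4310 probe sets lay above the midpoint and 5435 below it, against 4092 and 5340 with them. All markers of body wall muscle, pharyngeal muscle, intestine, epidermis, sperm, oocytes and yolk stood above the background bound of 5.56 log2 in every stage, 2 of 3 neuronal markers did, and 0 of 3 markers of embryos did. The neuronal exception was *unc-31*, and the embryo markers *pes-10*, *tbx-37* and *end-1* had stage means of 3.14 to 4.93.

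More genes lay below the midpoint in lethargus than above it, but the large departures were mostly upward. With limma's adjusted p held to 0.05, 3212 genes lay above the midpoint in lethargus (18.8% of the 17118 tested) and 4042 lay below it (23.6%). Among departures of at least 1 log2 unit, 1155 genes lay above (6.75%) and 490 below (2.86%). Over probe sets the counts were 4092 above (18.1%) and 5340 below (23.7%). The share of calls that lay above was 43.4%, and it was 24.8% after median-centring, 30.1% after a shift to the hybridisation controls and 51.2% after cyclic loess. With a departure of at least 1 log2 unit required it was 70.0%, with a midpoint of linear signals 35.6%.

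The called genes had 6 main shapes. In 1376 genes lethargus was higher than both other stages, each comparison called (8.04% of genes), and in 763 it was lower than both (4.46%). In 1130 genes all 5 lethargus arrays lay above all 10 others (6.60%), and in 657 all lay below (3.84%). Genes above the midpoint that were higher in Adult than in L4 without peaking, here early rise, numbered 281 (1.64%), and those above it that were lower in Adult than in L4, here late fall, numbered 1305 (7.62%). The counterparts below the midpoint were early fall, lower in Adult than in L4, with 601 genes (3.51%) and late rise, higher in Adult than in L4, with 2275 (13.3%). A further 250 genes above (1.46%) and 403 below (2.35%) had no called difference between Adult and L4 and did not lie beyond both stages. The median departure was 1.21 log2 units for genes above both stages and -0.63 for genes below both, against 0.62 for early rise, 0.58 for late fall, -0.66 for early fall and -0.42 for late rise. Peaks were also the only shape that reached beyond 4 log2 units in these data, up to 8.32, while the deepest trough was -3.34. A gene that stays between its L4 and Adult levels cannot depart further than the distance from the midpoint to either level. The smaller sizes of the early and late rises and falls therefore follow in part from their definition.

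**Figure D1:**
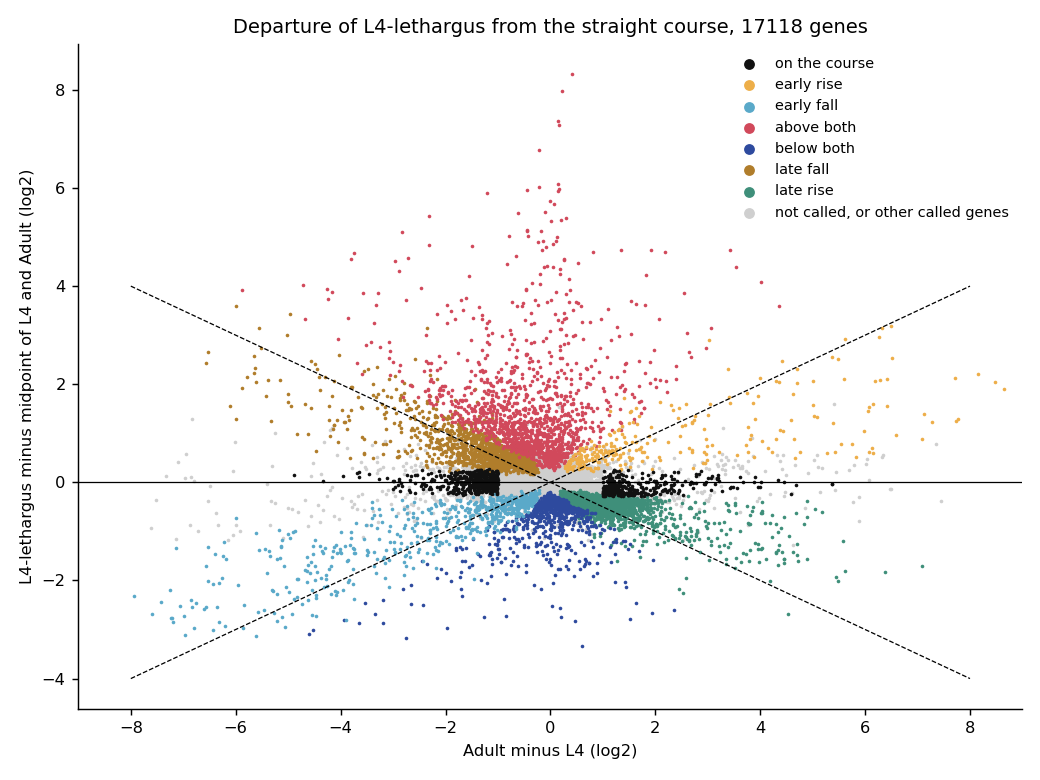
Each point is 1 of 17118 genes, with the Adult minus L4 difference on the horizontal axis and the lethargus minus midpoint difference on the vertical axis (log2). Points on the upper or lower dashed line have lethargus at the level of the higher or lower of the other stages, black points are on the course without being called, and the red peaks reach 8.32 while the dark blue troughs end at -3.34.

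Lethargus lay nearer to L4 than to Adult for the typical gene that changed between them. At a size of at least 1 log2 unit, 4233 genes differed between Adult and L4 (24.7%). Among 1911 genes that rose by at least 1 log2 unit between L4 and Adult, the median place of lethargus was 0.26 of the way (quartiles 0.12 and 0.47). Among 2322 genes that fell by as much, it was 0.30 of the way, with wider quartiles of -0.04 and 0.63. A single place fitted to all probe sets called between Adult and L4, where large changes weigh most, was 0.43, nearer the midpoint. Places were not computed under the other scalings, and the lower Adult array level bears on them. A place outside the interval of the other stages was found in 163 rising genes below their L4 level and 125 above their Adult level, and in 637 falling genes above their L4 level and 177 below their Adult level. A straight course was accepted only where the 95% confidence interval of the midpoint difference lay within 0.5 log2 of 0, and 416 of the rising genes (21.8%) and 462 of the falling genes (19.9%) met it, 878 in all (5.13% of all genes). Of these 878, 109 had a small departure that was also called (0.637% of all genes). Another 308 rising and 369 falling genes were neither called nor within that interval, so their course is not settled by these arrays.

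**Figure D2:**
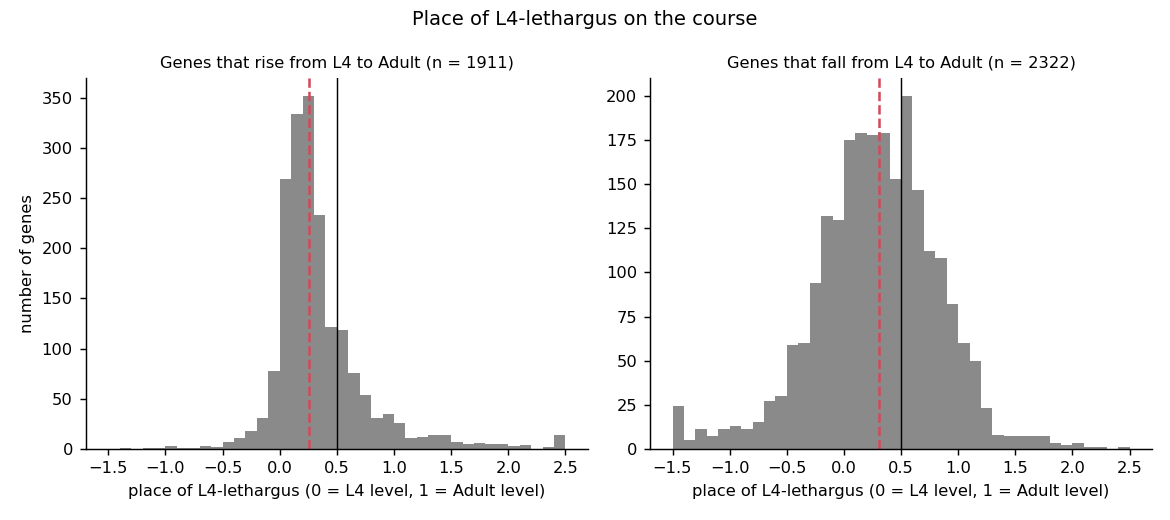
Number of genes (vertical axis) by the place of lethargus between the L4 level (0) and the Adult level (1), for 1911 genes that rose and 2322 that fell by at least 1 log2 unit, with places beyond -1.5 or 2.5 counted in the end bars. The red dashed lines mark the median places of 0.26 and 0.30, both left of the black line at the midpoint.

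Genes of the pharyngeal cuticle stood highest above the midpoint. *abu-15*, of a family that encodes pharyngeal cuticle proteins, had log2 signals of 3.83, 4.21, 4.55, 3.97 and 4.20 in L4, 12.26, 12.44, 12.98, 13.14 and 12.54 in lethargus and 4.60, 4.58, 4.67, 4.38 and 4.57 in Adult. The lethargus arrays lay far above the other 10, and the L4 and Adult arrays lay below the background bound. The difference was 8.32 ± 0.14 (SE, adjusted p = 5.74e-16), at least 138-fold over the midpoint when stages below the bound are set to it, as in every such value given here. *dct-5* had 3.54, 3.67, 3.55, 3.36 and 3.41 in L4, 11.60, 11.59, 11.72, 11.63 and 11.42 in lethargus and 3.79, 3.78, 3.65, 3.42 and 4.04 in Adult. Its stages separated in the same way, with a difference of 7.97 ± 0.09 (SE, adjusted p = 3.74e-18), at least 65.3-fold, though it belongs to none of the lists. *abu-8* had 5.36, 5.60, 5.40, 4.95 and 5.13 in L4, 12.32, 12.67, 12.82, 13.19 and 12.31 in lethargus and 5.23, 5.61, 5.57, 5.47 and 5.38 in Adult, and no lethargus array overlapped the others. Its difference was 7.29 ± 0.14 (SE, adjusted p = 1.61e-15), at least 137-fold, and *abu-6* differed by 7.36 ± 0.14 (SE, adjusted p = 1.61e-15), at least 124-fold. The probe sets of *abu-15*, *abu-6* and *abu-8* share probes with other transcripts, so these family members cannot be told apart.

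Of the 11 *abu* genes measured, 9 lay above the midpoint, all of them above both stages, and 0 lay below it, with a median of 4.30 against -0.07 over all genes. *abu-10*, read from a probe set not marked as sharing probes, averaged 5.60 ± 0.30 in L4, 11.75 ± 0.51 in lethargus and 5.74 ± 0.12 in Adult (SD, n = 5 each) and differed by 6.08 ± 0.17 (SE, adjusted p = 4.22e-13), while its other probe set gave 2.67. The exceptions were *abu-12* and *abu-13*, which were highest in L4 and lowest in Adult and had differences of -0.17 and -0.07 that were not called. Of 24 genes for disordered pharyngeal cuticle proteins, 19 lay above the midpoint and 2 below it, with a median of 1.91. *dbd-20* had 5.50, 5.83, 6.83, 5.39 and 6.54 in L4, 12.60, 12.74, 12.67, 12.67 and 12.70 in lethargus and 5.65, 5.65, 5.67, 5.68 and 6.34 in Adult. All its lethargus arrays lay above all others, by a difference of 6.77 ± 0.20 (SE, adjusted p = 6.12e-13). *dbd-13* and *idpc-2* differed by 5.95 ± 0.27 (SE, adjusted p = 1.17e-10) and 5.90 ± 0.33 (SE, adjusted p = 1.18e-09), the second at least 22.8-fold. *idpp-12*, of a related name but outside that list, differed by 5.94 ± 0.19 (SE, adjusted p = 1.53e-12), and *C06E8.5*, known only by its sequence name, by 5.98 ± 0.18 (SE, adjusted p = 5.88e-13). The 2 members below the midpoint were *dbd-18*, with 10.26 in L4, 4.99 in lethargus and 5.74 in Adult, and *dbd-2*, with 12.73 in L4, 8.16 in lethargus and 6.20 in Adult.

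The *pqn* genes, named for prion-like regions rich in glutamine and asparagine, were mixed: 13 of 47 lay above the midpoint (27.7%) and 9 below (19.1%). The peaks among them were large, and *pqn-54* averaged 5.89 ± 0.90 in L4, 11.42 ± 0.56 in lethargus and 6.19 ± 0.17 in Adult (SD, n = 5 each), a difference of 5.38 ± 0.30 (SE, adjusted p = 1.13e-09). *pqn-74* and *pqn-63* differed by 5.34 ± 0.49 (SE, adjusted p = 3.55e-07) and 4.92 ± 0.33 (SE, adjusted p = 1.06e-08). In all 3 the L4 array of replicate 3 was the highest of its stage. Pharyngeal cells other than the cuticle showed smaller departures. *pha-4*, the FoxA factor that specifies the pharynx, averaged 7.40 ± 0.31 in L4, 8.16 ± 0.28 in lethargus and 6.04 ± 0.25 in Adult (SD, n = 5 each) and differed by 1.44 ± 0.14 (SE, adjusted p = 8.03e-07). Of 10 genes on the pharyngeal muscle list, which includes *pha-4*, 4 lay above the midpoint and 0 below. Besides *pha-4* they included the troponin gene *tnt-4* (1.51, adjusted p = 0.000435) and the myosin genes *myo-5* (0.88, adjusted p = 0.00022) and *myo-2* (0.84, adjusted p = 0.00145). *myo-1* and *tnc-2* were not called, at 0.66 (adjusted p = 0.0708) and 0.43 (adjusted p = 0.375). Of 8 mucin-like *phat* genes of the pharyngeal glands 1 lay below the midpoint and 3 lay above both stages, *phat-2*, *phat-4* and *phat-1*, by 1.61, 1.50 and 1.16.

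**Figure D3:**
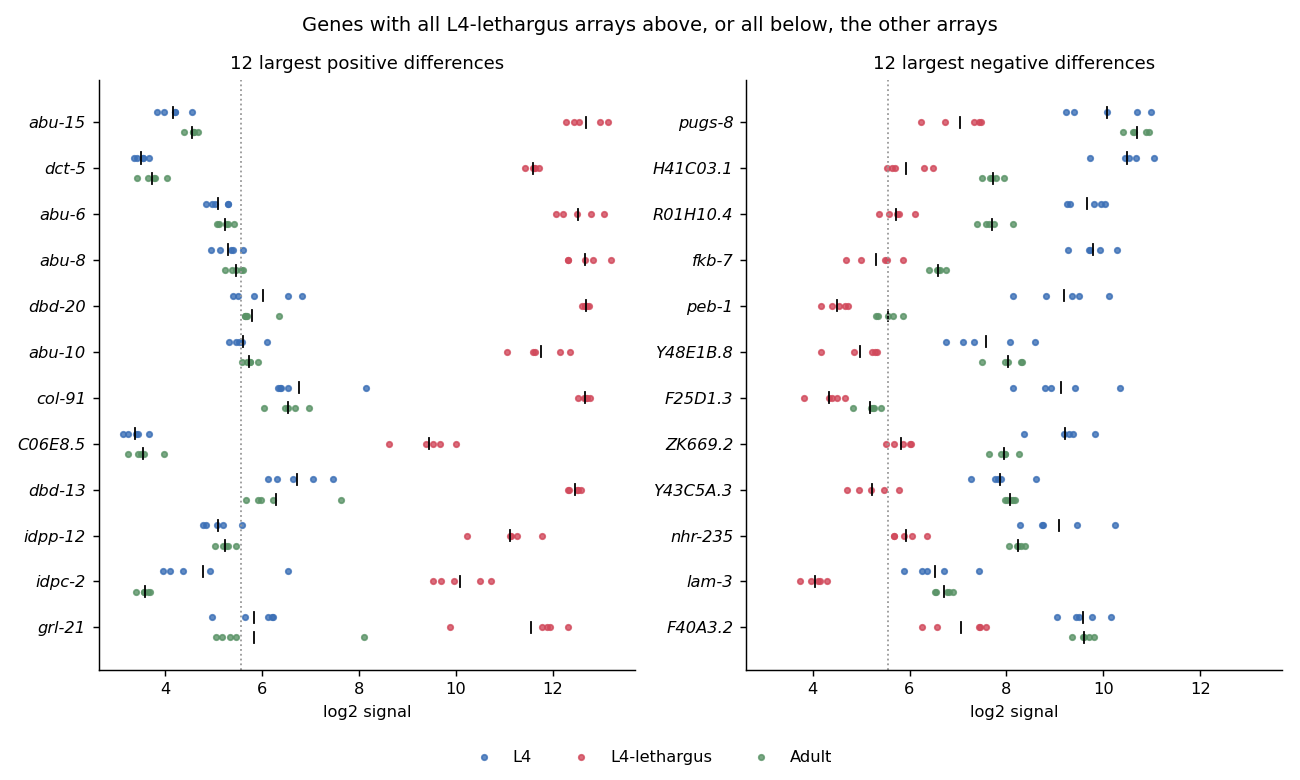
Log2 signal of every array for the 12 largest positive (left) and 12 largest negative (right) departures among genes whose 5 lethargus arrays all lie beyond the other 10, with black ticks at stage means and a dotted line at the background bound of 5.56. L4 points are above the lethargus points and Adult points below them in each row, and lethargus is far right of both stages on the left and left of both on the right.

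Collagens of the body cuticle were divided among the shapes. Of 146 cuticle collagen genes, 79 lay above the midpoint (54.1%, against 18.8% of all genes) and 16 below it, with a median of 0.49. Of those above, 41 were above both stages, 18 had an early rise and 17 a late fall. *col-91* peaked, with 6.33, 6.39, 8.14, 6.37 and 6.53 in L4, 12.51, 12.68, 12.76, 12.64 and 12.70 in lethargus and 6.53, 6.68, 6.03, 6.47 and 6.97 in Adult. The lethargus arrays lay above all others, and L4 replicate 3 stood alone among the L4 arrays. Its difference was 6.02 ± 0.24 (SE, adjusted p = 2.83e-11). *col-88* and *col-156* showed the same course, with differences of 5.15 ± 0.30 (SE, adjusted p = 1.76e-09) and 5.03 ± 0.25 (SE, adjusted p = 3.03e-10).

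The adult-type collagen *col-19* had instead reached its Adult level by lethargus. It had 7.10, 7.35, 7.38, 6.79 and 6.91 in L4, 12.77, 13.22, 13.31, 13.40 and 13.26 in lethargus and 13.52, 12.82, 13.52, 13.50 and 13.44 in Adult. Lethargus and Adult overlapped, and both lay far above L4, giving a midpoint difference of 2.96 ± 0.14 (SE, adjusted p = 1.56e-10). *col-129* and *col-81* did likewise. *col-129* averaged 6.66 ± 1.27 in L4, 13.09 ± 0.08 in lethargus and 13.15 ± 0.07 in Adult and *col-81* 7.30 ± 0.56 in L4, 13.05 ± 0.16 in lethargus and 12.92 ± 0.25 in Adult (SD, n = 5 each), with differences of 3.19 ± 0.35 (SE, adjusted p = 3.5e-06) and 2.93 ± 0.18 (SE, adjusted p = 3.4e-09). Against the midpoint of linear signals rather than logs, *col-19* and *col-81* stayed above, at 0.81 (adjusted p = 0.000874) and 1.09 (adjusted p = 0.000662), and *col-129* was no longer called, at 0.92 (adjusted p = 0.144).

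Other collagens were still high in lethargus and low in Adult. *col-14* had 12.37, 11.92, 12.67, 12.69 and 12.65 in L4, 12.78, 12.45, 12.45, 12.20 and 12.37 in lethargus and 6.77, 7.10, 6.89, 6.99 and 6.98 in Adult. L4 and lethargus overlapped and Adult lay apart below, a late fall with a difference of 2.74 ± 0.12 (SE, adjusted p = 1.03e-10). *dpy-5*, whose mutants are short and fat, averaged 12.70 ± 0.08 in L4, 11.95 ± 0.50 in lethargus and 7.09 ± 0.14 in Adult (SD, n = 5 each) and differed by 2.05 ± 0.15 (SE, adjusted p = 2.89e-08). Its lethargus arrays all lay below the L4 arrays, by a mean difference of -0.76 (adjusted p = 0.00517), and against the linear midpoint it was not called, at 0.21 (adjusted p = 0.653). *col-143* was the reverse, a late rise, with 7.37, 7.32, 7.08, 7.11 and 7.22 in L4, 7.35, 8.53, 7.32, 8.11 and 8.49 in lethargus and 12.58, 12.84, 12.75, 12.64 and 12.73 in Adult. The lethargus arrays overlapped L4 and fell short of every Adult array, and the difference was -2.01 ± 0.18 (SE, adjusted p = 2.11e-07).

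All 5 measured collagens of the annular furrows had an early fall, with a median of -2.54. *dpy-9* had 12.60, 12.04, 11.49, 11.84 and 12.41 in L4, 6.96, 7.54, 6.61, 6.81 and 7.57 in lethargus and 7.42, 7.86, 7.54, 7.43 and 7.41 in Adult. Lethargus overlapped Adult and lay below every L4 array, by a midpoint difference of -2.70 ± 0.18 (SE, adjusted p = 1.19e-08). *dpy-7* and *dpy-8* differed by -2.61 ± 0.19 (SE, adjusted p = 2.64e-08) and -2.54 ± 0.25 (SE, adjusted p = 7.62e-07), and *dpy-2* and *dpy-3* by -2.30 and -1.71. In the strut and body shape collagens, 2 of 13 lay above the midpoint and 3 below (15.4% and 23.1%, near the shares of all genes), and the lethargus arrays were widely spread. *bli-1*, a collagen of the adult cuticle struts, had 13.11, 13.04, 13.02, 13.21 and 13.10 in L4, 9.56, 8.50, 6.19, 6.56 and 8.27 in lethargus and 6.46, 6.91, 6.58, 6.47 and 6.40 in Adult, with lethargus replicates 3 and 4 at the Adult level and replicate 1 highest. Its difference was -2.02 ± 0.39 (SE, adjusted p = 0.00104). *rol-6* had 13.05, 12.87, 13.17, 13.19 and 13.11 in L4, 11.63, 10.94, 8.73, 9.54 and 10.86 in lethargus and 7.56, 7.61, 7.81, 7.66 and 7.74 in Adult, and its lethargus arrays spanned much of the gap between the other stages. Its difference of -0.04 had a 95% confidence interval of -0.74 to 0.66 and was not called. *lon-3* was called at -1.38 ± 0.44 (SE, adjusted p = 0.0339), and it lost the call when any one of lethargus replicates 2 to 5, L4 replicate 4 or Adult replicates 3 to 5 was left out, with values of -0.96 to -1.45. Without lethargus replicate 3 or 4 the value of *rol-6* was 0.36 or 0.16.

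Most precuticle matrix genes lay below the midpoint, as the furrow collagens did. Of 18 genes 13 lay below the midpoint, 12 of them by an early fall, and 1 lay above, with a median of -1.83. The lipocalin gene *lpr-5* had 11.92, 11.55, 10.90, 11.10 and 11.65 in L4, 4.68, 5.74, 4.02, 4.32 and 5.37 in lethargus and 4.30, 4.54, 4.75, 4.53 and 4.15 in Adult. Lethargus and Adult overlapped near or below the background bound and L4 lay apart above them, so the size of the departure, -3.11 ± 0.24 (SE, adjusted p = 5.27e-08), has no bound. *noah-2*, a zona pellucida domain protein of the precuticle, had 11.96, 11.79, 11.04, 11.01 and 11.45 in L4, 5.72, 6.44, 5.41, 5.84 and 6.48 in lethargus and 6.46, 6.17, 6.48, 6.37 and 6.45 in Adult. Its lethargus arrays overlapped Adult, with a difference of -2.94 ± 0.18 (SE, adjusted p = 4.26e-09). *osm-8*, which encodes a mucin-like protein, differed by -2.97 ± 0.17 (SE, adjusted p = 1.67e-09), again with lethargus and Adult means both below the bound. *let-653*, a precuticle mucin-like protein, was the 1 member below both stages, with 9.41 in L4, 5.60 in lethargus and 6.76 in Adult, and *dex-1*, a matrix protein of seam cells and sensory neurons, was the 1 above both, with 7.23 in L4, 8.03 in lethargus and 6.37 in Adult. The warthog gene *wrt-1*, one of the secreted hedgehog-related proteins of the epidermis, had 12.47, 12.28, 12.02, 12.34 and 12.29 in L4, 5.62, 7.16, 5.11, 5.44 and 6.87 in lethargus and 6.13, 5.68, 6.08, 5.74 and 5.59 in Adult. Lethargus again overlapped Adult and not L4, with a difference of -3.02 ± 0.27 (SE, adjusted p = 2.55e-07). Early falls without a named family included *F23H12.5* (-3.14, adjusted p = 2.7e-10) and *C26B9.7* (-2.96, adjusted p = 2.01e-10). The lethargus mean of *F23H12.5* lay below the bound, and its difference was at least 7.24-fold. For *C26B9.7* the lethargus and Adult means both lay below it, so the size has no bound.

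Hedgehog-related and patched-related genes went both ways. Of 54 hedgehog-related genes 18 lay above the midpoint (33.3%) and 15 below (27.8%). The ground-like gene *grl-4* had 6.13, 5.66, 5.67, 5.52 and 5.96 in L4, 12.08, 12.24, 12.44, 12.22 and 12.22 in lethargus and 9.19, 9.14, 9.26, 9.25 and 9.19 in Adult. Every lethargus array lay above every Adult array, and every Adult array above every L4 array, and the departure was 4.74 ± 0.09 (SE, adjusted p = 1.83e-15). *grl-21* and *grl-27* peaked by 5.73 ± 0.47 (SE, adjusted p = 9.81e-08) and 5.00 ± 0.17 (SE, adjusted p = 2.75e-12). *grl-21* had 1 lethargus array at 9.87 and 1 Adult array at 8.10 that stood apart from their stages. Of 26 patched-related genes 7 lay above (26.9%) and 4 below (15.4%). *ptr-3* and *ptr-20* were above both stages by 3.46 and 2.36, at least 4.44-fold and at least 4.96-fold, while *ptr-10* had an early fall (-2.12, adjusted p = 1.02e-07) to signals below the bound. The cuticlins and other zona pellucida proteins had 9 of 34 above (26.5%) and 5 below (14.7%). *cut-4* and *cutl-12* were above both stages by 2.86 and 2.07, and *cut-2* had a late fall of 2.14 from the midpoint.

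Many genes for enzymes of cuticle removal and cross-linking peaked in lethargus. Of 36 astacin metalloproteases, secreted zinc proteases several of which act in molting, 20 lay above the midpoint, 17 of them above both stages, and 2 below, with a median of 0.69. *nas-30* had 5.16, 5.60, 6.08, 5.69 and 5.63 in L4, 9.62, 9.53, 9.72, 9.61 and 9.61 in lethargus and 5.81, 6.30, 5.75, 5.69 and 6.03 in Adult. The lethargus arrays lay above all others and the 2 other stages overlapped, with a difference of 3.84 ± 0.12 (SE, adjusted p = 2.07e-12). *toh-1* had 4.80, 4.43, 4.98, 4.94 and 4.96 in L4, 10.10, 9.74, 10.38, 10.07 and 9.49 in lethargus and 7.40, 7.02, 7.66, 7.30 and 7.46 in Adult. Its Adult arrays were midway, and the difference was 3.86 ± 0.14 (SE, adjusted p = 7.77e-12), at least 11.2-fold on that probe set, while its other 2 probe sets gave 0.78 and 4.41. *nas-38* averaged 6.96 ± 0.47 in L4, 9.92 ± 0.18 in lethargus and 5.36 ± 0.25 in Adult (SD, n = 5 each) and differed by 3.76 ± 0.16 (SE, adjusted p = 7.21e-11). Of 15 genes for collagen processing and cross-linking 8 lay above and 3 below. The peroxidase gene *mlt-7* and *doxa-1*, a maturation factor of the dual oxidase that supplies it with peroxide, were above both stages by 3.01 ± 0.19 (SE, adjusted p = 6.14e-09) and 1.43 ± 0.12 (SE, adjusted p = 9.85e-08). The other probe set of *mlt-7* gave 1.41. *skpo-3*, another peroxidase gene, had an early rise with 7.46 ± 0.67 in L4, 11.47 ± 0.26 in lethargus and 10.85 ± 0.19 in Adult (SD, n = 5 each) and a difference of 2.32 ± 0.21 (SE, adjusted p = 3.07e-07). The 3 below were *phy-2*, a prolyl hydroxylase subunit, *dpy-11*, a thioredoxin-like protein, and *bli-4*, a proprotein convertase, at -1.17, -0.55 and -0.29. Of the 8 *mlt* genes, found through molting defects, *mlt-7* was the 1 above and 4 lay below, with *mlt-10* at -1.71 ± 0.38 (SE, adjusted p = 0.00321) (-1.04 on its other probe set) and *mlt-9* at -1.39 ± 0.19 (SE, adjusted p = 2.78e-05).

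Most genes for antimicrobial peptides of the epidermis lay above the midpoint. Of 18 epidermal antimicrobial peptide genes 13 lay above and 1 below, with a median of 0.89. *cnc-4* averaged 8.40 ± 0.42 in L4, 11.63 ± 0.14 in lethargus and 5.70 ± 1.36 in Adult (SD, n = 5 each), and its lethargus arrays lay above all others, with a difference of 4.58 ± 0.40 (SE, adjusted p = 1.97e-07). *nlp-25* differed by 2.69 ± 0.22 (SE, adjusted p = 1.08e-07). The 1 below was *cnc-3*, with 12.60 ± 0.19 in L4, 7.65 ± 1.34 in lethargus and 8.14 ± 0.36 in Adult (SD, n = 5 each) and a difference of -2.72 ± 0.39 (SE, adjusted p = 5.4e-05). Of 34 lysozymes and saposin-like proteins 11 lay above (32.4%, against 18.8% of all genes) and 3 below (8.82%, against 23.6%). Those above were led by the saposin-like gene *spp-31* (3.05, adjusted p = 1.03e-10), the invertebrate lysozyme gene *ilys-4* (1.86, adjusted p = 3.69e-09) and *spp-24* (1.68, adjusted p = 1.85e-05). After median-centring those counts were 9 above and 11 below. The C-type lectins, 220 genes, had 27 above and 30 below, shares no larger than those of all genes. Their members reached 3.68 for *clec-174*, 2.60 for *clec-230* and -2.21 for *clec-180*. The chitin-binding gene *cpg-22* was above both stages by 4.81 ± 0.33 (SE, adjusted p = 1.37e-08), at least 27.9-fold, and the chitinase genes *cht-4* and *cht-6* lay above the midpoint by 2.26 and 1.49. Of 46 chitinases and chitin-binding genes 8 lay above, a share of 17.4% against 18.8% of all genes, and 4 below, 8.70% against 23.6%.

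Of 16 regulators of the molting cycle 2 lay above the midpoint and 4 below, shares near the 18.8% above and 23.6% below of all genes. *nhr-23*, a nuclear receptor that drives molting genes, had 9.05, 8.69, 8.58, 8.47 and 8.48 in L4, 7.92, 7.92, 8.03, 8.22 and 7.73 in lethargus and 8.94, 8.36, 8.90, 9.01 and 8.86 in Adult. Every lethargus array lay below every L4 and Adult array, by a midpoint difference of -0.77 ± 0.12 (SE, adjusted p = 0.00011). *myrf-1*, a membrane-bound transcription factor, had an early fall, with 9.88, 9.65, 9.02, 9.43 and 9.23 in L4, 6.95, 6.84, 6.60, 6.55 and 6.59 in lethargus and 6.51, 5.76, 6.59, 6.55 and 6.48 in Adult and a difference of -1.21 ± 0.15 (SE, adjusted p = 1.19e-05). *ceh-60*, a homeobox factor, was above both stages, with 9.18, 8.93, 9.38, 9.27 and 9.41 in L4, 10.23, 10.45, 10.46, 10.36 and 10.56 in lethargus and 9.22, 9.06, 8.84, 8.90 and 9.08 in Adult. The lethargus arrays did not overlap the others, and the difference was 1.29 ± 0.09 (SE, adjusted p = 1.5e-08). Of 15 heterochronic genes, which time larval and adult fates, 2 lay above and 5 below, 13.3% and 33.3% of them, against 18.8% and 23.6% of all genes. *kin-20*, a casein kinase, had 7.12, 7.09, 7.16, 6.79 and 6.85 in L4, 7.47, 7.86, 8.05, 7.58 and 7.86 in lethargus and 6.44, 6.96, 6.74, 6.76 and 6.75 in Adult, all lethargus arrays being highest, with a difference of 0.90 ± 0.11 (SE, adjusted p = 6.06e-06). *lin-46* was above both stages by 1.95 ± 0.11 (SE, adjusted p = 1.17e-09), at least 2.94-fold on that probe set, while its other probe set gave 0.79. *mab-10*, a cofactor of the larval-to-adult switch, was below the midpoint by -1.13 ± 0.14 (SE, adjusted p = 1.65e-05), with lethargus and Adult means both below the bound. *lin-42*, the homolog of the clock gene period, belonged to both lists and stayed on the course, as described with the other genes of a straight course.

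Nuclear hormone receptor genes lay above the midpoint more often than below it. Of 254 genes 105 lay above the midpoint (41.3%) and 14 below (5.51%). Of those above, 52 were above both stages and 41 had a late fall. Their median was 0.18, and it stayed above that of all genes under each scaling tried, by 0.25 after median-centring and 0.19 after renewed quantile normalization. *nhr-208* was above both stages by 1.82 ± 0.11 (SE, adjusted p = 2.62e-09), at least 2.54-fold, and *nhr-112* had a late fall of 1.76 ± 0.20 (SE, adjusted p = 4.47e-06). Against that direction *nhr-235* had 10.23, 8.73, 8.27, 8.75 and 9.45 in L4, 5.67, 6.37, 5.69, 6.05 and 5.89 in lethargus and 8.30, 8.38, 8.06, 8.21 and 8.23 in Adult. All lethargus arrays lay below all others, by -2.73 ± 0.23 (SE, adjusted p = 1.56e-07). Of 73 cytochrome P450 genes 26 lay above (35.6%, against 18.8% of all genes) and 14 below (19.2%, against 23.6%). *cyp-37B1*, *cyp-32A1* and *cyp-33C5*, cytochrome P450 monooxygenases, were above both stages by 3.57, 3.03 and 2.08. Of 40 transthyretin-like genes 13 lay above (32.5%) and 7 below (17.5%), with *ttr-37* and *ttr-32* at 1.95 and 1.87 and *ttr-28* below both stages at -1.91.

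Several of the deepest troughs were genes known only by sequence names, which were 36.0% of all genes below both stages, against 39.2% of all genes. *pugs-8* had 10.69, 9.23, 9.40, 10.08 and 10.98 in L4, 7.47, 7.44, 6.23, 6.74 and 7.32 in lethargus and 10.87, 10.93, 10.64, 10.62 and 10.40 in Adult. Lethargus lay below every other array, and the L4 arrays spread widely, with a difference of -3.34 ± 0.27 (SE, adjusted p = 8.29e-08). *H41C03.1* had 11.04, 10.45, 9.73, 10.52 and 10.68 in L4, 5.54, 6.29, 5.71, 5.63 and 6.49 in lethargus and 7.50, 7.95, 7.78, 7.71 and 7.65 in Adult. Its Adult arrays recovered only part of the L4 level, and the difference was -3.17 ± 0.19 (SE, adjusted p = 2.32e-09). *R01H10.4* followed the same course, averaging 9.67 ± 0.37 in L4, 5.72 ± 0.28 in lethargus and 7.70 ± 0.28 in Adult (SD, n = 5 each), and differed by -2.97 ± 0.16 (SE, adjusted p = 6.31e-10). *F40A3.2* had 10.15, 9.50, 9.04, 9.43 and 9.76 in L4, 6.26, 7.46, 6.57, 7.58 and 7.43 in lethargus and 9.81, 9.35, 9.70, 9.59 and 9.58 in Adult, and there L4 and Adult overlapped while lethargus lay apart by -2.53 ± 0.21 (SE, adjusted p = 1.26e-07). *ZK669.2* differed by -2.75 ± 0.17 (SE, adjusted p = 5.17e-09). *Y48E1B.8*, *Y43C5A.3* and *F25D1.3* had mean lethargus signals below the bound, with differences of -2.83, -2.75 and -2.81, the first 2 at least 4.71-fold and at least 5.32-fold lower. The Adult mean of *F25D1.3* lay below the bound too. The size of its departure therefore has no bound, and its lower level in lethargus than in Adult rests on signals below the bound.

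Some troughs were genes of known function. *fkb-7*, of the FK506-binding prolyl isomerases, averaged 9.78 ± 0.36 in L4, 5.32 ± 0.47 in lethargus and 6.59 ± 0.13 in Adult (SD, n = 5 each) and differed by -2.87 ± 0.17 (SE, adjusted p = 2.76e-09), at least 6.17-fold lower. *peb-1*, a DNA-binding protein of the pharynx, averaged 9.18 ± 0.75 in L4, 4.50 ± 0.23 in lethargus and 5.54 ± 0.23 in Adult (SD, n = 5 each) and differed by -2.87 ± 0.23 (SE, adjusted p = 7.63e-08), with lethargus and Adult means both below the bound. Its other probe set gave -1.25. *lam-3*, a laminin alpha chain of basement membranes, averaged 6.53 ± 0.59 in L4, 4.06 ± 0.21 in lethargus and 6.71 ± 0.17 in Adult (SD, n = 5 each) and differed by -2.56 ± 0.18 (SE, adjusted p = 2.16e-08), at least 2.08-fold lower, while its other probe set gave -0.70. *spe-44*, a transcription factor of spermatogenesis, had 9.12, 9.58, 9.87, 9.45 and 9.32 in L4, 8.10, 8.23, 7.74, 7.99 and 8.23 in lethargus and 8.83, 9.19, 8.93, 8.89 and 8.78 in Adult. Every lethargus array was lowest, by -1.14 ± 0.11 (SE, adjusted p = 1.15e-06). It and *spe-5* (-0.79, adjusted p = 3.51e-05) were the largest departures among 72 sperm genes. Of these, 8 lay above (11.1%, against 18.8% of all genes), 4 lay below (5.56%, against 23.6%) and 60 were not called. After median-centring those counts were 2 above and 10 below, and after cyclic loess 21 above and 4 below. The third by size was *spe-54*, at 0.59 (adjusted p = 0.0112), and the sperm markers *spe-11*, *gsp-3* and *spe-9* differed by 0.42 (adjusted p = 0.0142), 0.20 (adjusted p = 0.258) and -0.23 (adjusted p = 0.327).

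Most cell cycle genes lay below the midpoint, near their L4 level, and were higher in Adult. Of 31 DNA replication and cell cycle genes 22 lay below, 20 of them by a late rise, and 1 lay above, with a median of -0.58. Among the late rises *mcm-5*, of the replicative helicase, had means of 9.63 in L4, 9.38 in lethargus and 10.84 in Adult, and *psf-1*, of the complex that activates it, had means of 9.23 in L4, 9.11 in lethargus and 10.65 in Adult. Beyond both stages were the G1 cyclin *cyd-1* and the ribonucleotide reductase gene *rnr-1*, and the CDK inhibitor *cki-1* in the other direction. *cyd-1* had 7.38, 7.03, 6.40, 6.62 and 6.85 in L4, 5.38, 5.33, 5.59, 5.40 and 5.23 in lethargus and 6.54, 7.14, 6.52, 6.67 and 6.59 in Adult. Lethargus lay below all other arrays and their mean was below the bound, with a difference of -1.39 ± 0.14 (SE, adjusted p = 9.87e-07), at least 2.32-fold lower. *cki-1* had 9.75, 9.60, 9.44, 9.80 and 9.80 in L4, 10.53, 10.51, 10.25, 10.25 and 10.48 in lethargus and 8.72, 8.76, 8.60, 8.37 and 8.79 in Adult. Lethargus lay above all other arrays, with a difference of 1.24 ± 0.09 (SE, adjusted p = 1.94e-08). *rnr-1* averaged 11.19 ± 0.17 in L4, 10.64 ± 0.08 in lethargus and 11.89 ± 0.12 in Adult (SD, n = 5 each) and differed by -0.90 ± 0.08 (SE, adjusted p = 2.02e-07). Of 26 histone genes 18 lay below, 7 of them below both stages, and 2 above. Members below included *his-38* (-1.14, adjusted p = 4.77e-06), *his-64* (-0.82, adjusted p = 0.000549) and *his-1* (-0.64, adjusted p = 0.000103). The probe sets of these 3 share probes with other transcripts.

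Meiotic genes were mostly late rises, as replication genes were. Of 21 measured, 15 lay below the midpoint, 14 of them by a late rise, and 0 above, with a median of -0.37. *him-14*, *dsb-2* and *zim-1*, which act in crossing over, double-strand breaks and chromosome pairing, differed by -0.55 ± 0.12 (SE, adjusted p = 0.00217), -0.55 ± 0.15 (SE, adjusted p = 0.0122) and -0.53 ± 0.13 (SE, adjusted p = 0.00512). The 6 largest late rises over all genes were in neither of these lists. *drd-10* had 5.42, 5.36, 4.83, 4.84 and 5.14 in L4, 4.53, 4.73, 4.49, 4.71 and 5.05 in lethargus and 9.47, 10.25, 10.18, 9.33 and 9.02 in Adult. L4 and lethargus overlapped below the background bound and Adult lay far above, so the difference of -2.68 ± 0.18 (SE, adjusted p = 1.2e-08) has no bound. *sshk-1*, *T07D10.3*, *F02D10.6* and *T12B3.2* differed by -2.26, -2.18, -2.02 and -1.94. The L4 and lethargus means of *sshk-1* and *F02D10.6* also lay below the bound, so their sizes have no bound either. The lethargus mean of *T07D10.3* lay below it as well, and its difference was at least 3.5-fold. Of the 2275 late rises, 356 had both L4 and lethargus below the bound, where an earlier start of a rise would not show, and of the 601 early falls 187 had both lethargus and Adult below it.

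Oocyte and yolk genes divided between the straight course and an early rise. Of 29 oocyte and eggshell genes 13 were on the course, the largest share of the 42 lists. Above the midpoint lay 5 (17.2%, against 18.8% of all genes) and below it 1 (3.45%, against 23.6%). *rme-2*, the yolk receptor of oocytes, averaged 9.46 ± 0.47 in L4, 11.02 ± 0.10 in lethargus and 12.24 ± 0.09 in Adult (SD, n = 5 each) and differed by 0.17, with a 95% confidence interval of -0.13 to 0.48. *perm-2*, *cpg-3* and *perm-4*, genes of the eggshell layers, had early rises, 1.28 ± 0.24 (SE, adjusted p = 0.000619), 1.07 ± 0.21 (SE, adjusted p = 0.00125) and 0.84 ± 0.20 (SE, adjusted p = 0.00513) above the midpoint. The oocyte markers *oma-1* and *puf-5* were not called, at -0.20 (adjusted p = 0.548) and 0.55 (adjusted p = 0.117), and *puf-5* was called at 0.65 without L4 replicate 3. The vitellogenins, precursors of yolk made in the intestine, had 4 of 5 above and 1 below. *vit-2* had 10.09, 9.45, 10.03, 10.09 and 9.88 in L4, 13.21, 13.23, 13.22, 13.30 and 13.26 in lethargus and 13.40, 13.38, 13.31, 13.35 and 13.28 in Adult. Lethargus and Adult overlapped slightly, and both lay far above L4, with a difference of 1.62 ± 0.09 (SE, adjusted p = 1.13e-09). *vit-5* had 7.35, 5.68, 8.56, 7.67 and 7.03 in L4, 12.30, 12.63, 12.62, 12.63 and 12.65 in lethargus and 13.57, 13.61, 13.89, 13.85 and 13.41 in Adult, with widely spread L4 arrays and a difference of 2.11 ± 0.30 (SE, adjusted p = 5.07e-05). *vit-6* and *vit-4* differed by 1.14 ± 0.05 (SE, adjusted p = 2.01e-10) and 2.06 ± 0.34 (SE, adjusted p = 0.000218). The 1 below was *vit-1*, with 9.84 in L4, 10.72 in lethargus and 12.78 in Adult. Against the linear midpoint *vit-2* and *vit-6* stayed above by 0.77 and 0.65, and *vit-5*, *vit-4*, *perm-2*, *cpg-3* and *perm-4* were not called, at -0.12, -0.05, -0.07, -0.18 and -0.27. The probe sets of *vit-5* and *vit-4* share probes with other transcripts, and the other 2 of *vit-4* gave 0.31 and 2.12.

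Early rises outside these families included *F54F7.3*, *Y45F10C.4* and *piit-1*. *F54F7.3* and *Y45F10C.4* differed by 3.14 ± 0.38 (SE, adjusted p = 8.98e-06) and 2.55 ± 0.40 (SE, adjusted p = 0.000135). Against the linear midpoint neither was called, at 0.96 (adjusted p = 0.162) and 0.83 (adjusted p = 0.288). *piit-1* had 3.82, 4.08, 3.86, 4.16 and 3.86 in L4, 3.96, 9.06, 9.36, 10.22 and 9.24 in lethargus and 7.18, 6.92, 6.88, 7.40 and 6.51 in Adult. Lethargus replicate 1 was at the L4 level, while the other 4 lethargus arrays lay above every Adult array. Its difference was 2.90 ± 0.70 (SE, adjusted p = 0.00531), and 4.00 without lethargus replicate 1.

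**Figure D4:**
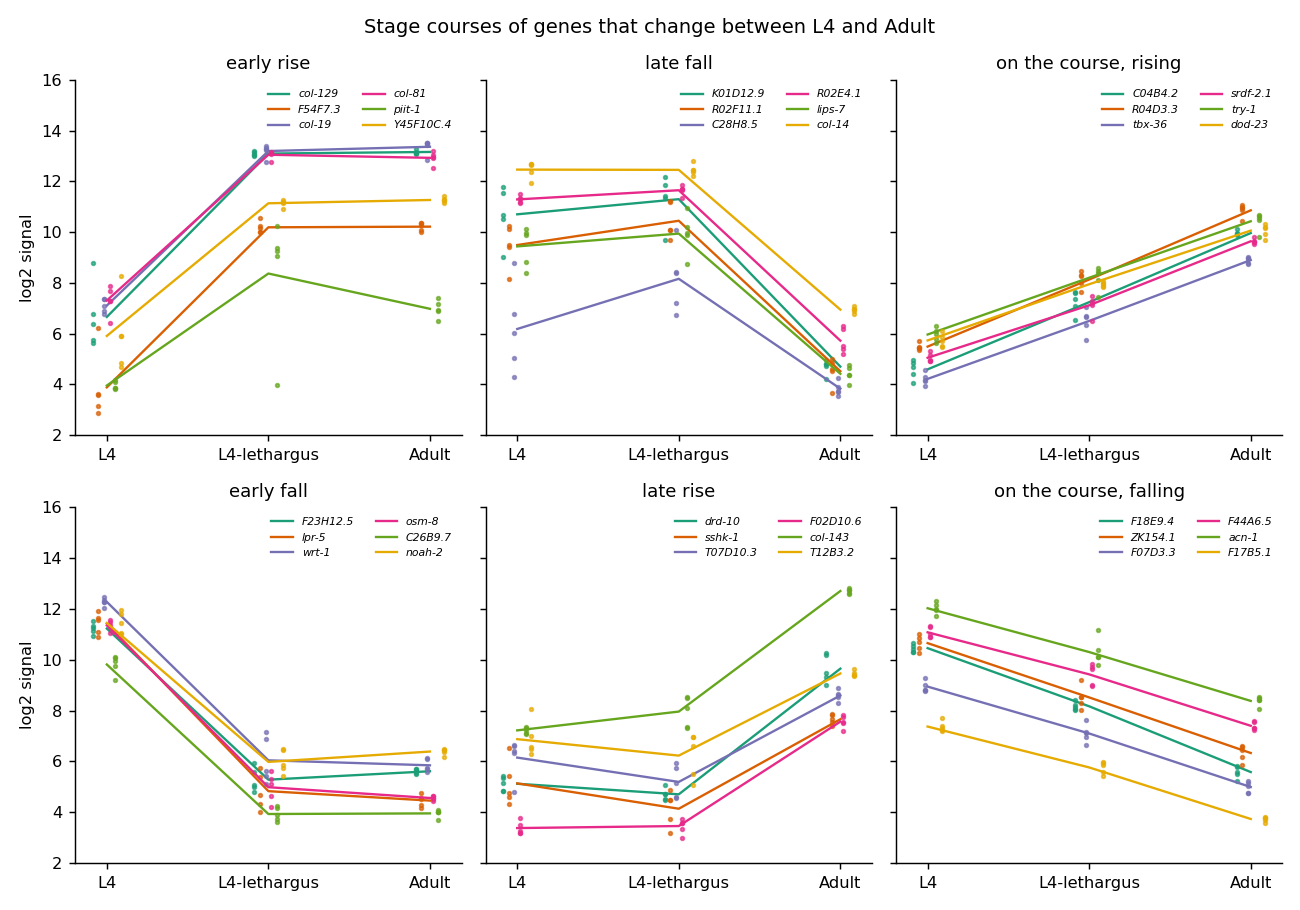
Log2 signal by stage for the 6 largest departures of each course class and for 6 of the 8 steepest genes on the course in each direction. Lines join stage means, points are single arrays (5 per stage), and mean lethargus signals sit near or beyond the Adult level in the left panels, near or beyond the L4 level in the middle panels and midway in the right panels.

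Neuropeptide genes were above the midpoint in most cases called, many of them at their L4 level in lethargus and lower in Adult. Of 25 FMRFamide-like neuropeptide genes 16 lay above the midpoint and 0 below, 8 of them by a late fall, and of 48 other neuropeptide-like genes 29 lay above and 0 below, 18 by a late fall. Their medians were 0.57 and 0.61. Whether the amount of these transcripts per animal fell was not tested. *flp-7* had 9.58, 9.68, 9.72, 9.98 and 9.99 in L4, 9.86, 10.12, 9.98, 9.92 and 10.19 in lethargus and 7.54, 7.36, 7.69, 7.66 and 7.69 in Adult. L4 and lethargus overlapped and every Adult array was lower, with a difference of 1.33 ± 0.09 (SE, adjusted p = 8.97e-09). *flp-4*, *flp-16* and *nlp-20* differed by 1.13 ± 0.12 (SE, adjusted p = 2.77e-06), 1.07 ± 0.08 (SE, adjusted p = 3.45e-08) and 1.59 ± 0.12 (SE, adjusted p = 2.32e-08) in the same way. *nlp-67* and *nlp-62* were peaks instead. *nlp-67* had 4.92, 5.11, 5.27, 4.70 and 4.95 in L4, 9.32, 9.60, 9.51, 9.27 and 9.33 in lethargus and 5.06, 4.69, 5.13, 5.00 and 5.26 in Adult, the lethargus arrays apart from the rest, with a difference of 4.40 ± 0.10 (SE, adjusted p = 3.48e-14), at least 14.4-fold, and *nlp-62* differed by 2.25 ± 0.19 (SE, adjusted p = 1.46e-07). Of 28 synaptic and transmitter genes 10 lay above, 9 by a late fall, and 1 below. The SNAP-25 homolog *ric-4*, synaptotagmin *snt-1* and syntaxin *unc-64* differed by 0.87 ± 0.09 (SE, adjusted p = 1.09e-06), 0.81 ± 0.20 (SE, adjusted p = 0.00617) and 0.59 ± 0.07 (SE, adjusted p = 1.01e-05). After median-centring the synaptic counts were 5 above and 3 below. The 3 neuronal markers did not go the same way. *rab-3* was called above at 0.46 (adjusted p = 0.00148), and *snb-1* was not called, at 0.10 (adjusted p = 0.551). *unc-31* was called below the midpoint, a late rise at -0.37.

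Among 30 genes linked to sleep, 9 lay above the midpoint, 4 of them above both stages, and 1 below, and the list's median of 0.13 stood 0.20 above that of all genes (0.14 to 0.20 over the scalings tried). *flp-11*, the sleep-promoting peptide gene of the RIS neuron, had 9.06, 9.06, 9.48, 9.42 and 9.85 in L4, 9.69, 9.68, 9.90, 9.75 and 9.61 in lethargus and 8.12, 8.71, 8.07, 8.34 and 8.11 in Adult. Its lethargus arrays lay within or above the L4 range and above Adult, a late fall with a difference of 0.90 ± 0.13 (SE, adjusted p = 5.39e-05). *flp-24*, a peptide gene of stress-induced sleep, was above both stages, with 9.47, 9.24, 9.51, 9.32 and 9.50 in L4, 9.77, 9.84, 9.83, 9.62 and 9.65 in lethargus and 9.06, 9.17, 8.68, 8.81 and 9.08 in Adult and a difference of 0.56 ± 0.09 (SE, adjusted p = 0.000102). *flp-21*, which acts through the arousal receptor NPR-1, was above both stages by 0.70 ± 0.09 (SE, adjusted p = 1.21e-05), and *nlp-8* had a late fall at 0.69 ± 0.13 (SE, adjusted p = 0.000672). *flp-13*, with 6.09 ± 0.31 in L4, 6.52 ± 0.20 in lethargus and 6.46 ± 0.23 in Adult (SD, n = 5 each), was not called at 0.25 (adjusted p = 0.239). *nlp-22* was not called at -0.04 (adjusted p = 1), with lethargus and Adult means below the bound, nor was the epidermal growth factor gene *lin-3* at -0.24 (adjusted p = 0.683), though without Adult replicate 2 the value was -0.38 and called. The RIS factor *aptf-1* lay below the bound in all 3 stages. Of 24 insulin-like genes 5 lay above (20.8%, against 18.8% of all genes) and 3 below (12.5%, against 23.6%), with *ins-18* highest at 1.49, *ins-35* lowest at -1.75 and *ins-34* among those below.

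Other late falls came from several functions. *R02E4.1* had 11.14, 11.18, 11.33, 11.49 and 11.29 in L4, 11.69, 11.66, 11.68, 11.34 and 11.87 in lethargus and 5.53, 5.21, 6.31, 5.39 and 6.18 in Adult. L4 and lethargus lay close together and Adult far below, with a difference of 3.14 ± 0.16 (SE, adjusted p = 3.77e-10). *K01D12.9*, *R02F11.1* and the lipase-like gene *lips-7* differed by 3.60 ± 0.41 (SE, adjusted p = 4.4e-06), 3.44 ± 0.33 (SE, adjusted p = 6.98e-07) and 3.01 ± 0.32 (SE, adjusted p = 2.09e-06). The bounds were 8.98-fold or more for *K01D12.9*, 7.57-fold or more for *R02F11.1* and 5.43-fold or more for *lips-7*. *C28H8.5* had L4 arrays between 4.29 and 8.79 and differed by 3.15 ± 0.60 (SE, adjusted p = 0.000889). The intestinal markers *elt-2*, *ges-1* and *vha-6* were late falls as well, at 0.37 (adjusted p = 0.00984), 0.59 (adjusted p = 0.000355) and 0.30 (adjusted p = 0.0369), and *elt-2* and *vha-6* were not called against the linear midpoint, nor after median-centring, at 0.22 and 0.15. Of 36 genes on the list of intestinal proteases 9 lay above and 5 below, with *try-5* at 1.31, *try-9* at 0.94 and *cpr-8* below both stages at -1.07. *try-5* is known as a protease of male seminal fluid, so its value is not a result about the intestine.

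Genes of protein synthesis, respiration and muscle had small departures, and most proteasome genes lay slightly below the midpoint. Of 33 proteasome subunits 26 lay below the midpoint and 0 above, 10 of them below both stages, with a median of -0.27. *rpn-9*, of the regulatory particle, had 10.94, 11.14, 10.99, 11.04 and 11.01 in L4, 10.66, 10.83, 10.65, 10.79 and 10.79 in lethargus and 11.42, 11.46, 11.48, 11.50 and 11.46 in Adult. The 3 stages did not overlap, with lethargus lowest, and the difference was -0.50 ± 0.06 (SE, adjusted p = 4.46e-06). *rpn-1* and *pas-7* differed by -0.42 (adjusted p = 0.000156) and -0.51 (adjusted p = 0.00378). The count below was 16 after cyclic loess and 33 after median-centring. The list of cytosolic ribosomal proteins had 5 of 65 below (7.69%, against 23.6% of all genes) and 0 above, with a median of -0.05 and *rpl-41.1* at -0.55. Among those below it counted *rpa-1* and *rpa-2*, late rises at -0.55 and -0.27, whose names stand for replication protein A subunits, not ribosomal proteins. The list's count below was 53 after median-centring, which lowers every difference alike. Oxidative phosphorylation genes had 7 of 45 below (15.6%, against 23.6% of all genes) and 0 above, with *asg-1*, *cox-11* and *asb-1* at -0.51, -0.47 and -0.43. Body wall muscle genes had 3 of 30 above (10.0%, against 18.8% of all genes) and 0 below. Those above included *tnt-3* at 0.46 (adjusted p = 0.0123) and *unc-60* at 0.27 (adjusted p = 0.043). The other 4 probe sets of *unc-60* gave -0.11 to 0.02 and none was called. After median-centring the list had 0 above and 8 below. The muscle markers *myo-3*, *unc-54* and *unc-15* lay within -0.04 to 0.03. Of 21 heat shock genes 2 lay above (9.52%, against 18.8% of all genes) and 5 below (23.8%, against 23.6%), among them *hsp-16.41* at -1.84 (adjusted p = 5.35e-05) and *hsp-16.2* at -0.97 (adjusted p = 0.00939), both stress-inducible and both early falls, and *hsp-12.6* at -0.68 with signals below the bound in every stage. Of 15 fatty acid desaturases and elongases 2 lay above and 3 below (13.3% and 20.0%), with *fat-7* at 0.79, *fat-3* at -0.83 and *elo-4* at -0.83. The medians of the strut collagens, cuticlins, *pqn* genes, heterochronic genes, lysozymes, chitinases, sperm genes, body wall muscle genes, desaturases, transthyretin-like genes and intestinal proteases changed sign under at least 1 scaling. Median-centring and the shift to the hybridisation controls lower every gene alike and leave a list's median relative to that of all genes as it was. Over the scalings tried, that relative median was 0.20 to 0.23 for the lysozymes and saposins, 0.10 to 0.15 for the sperm genes, 0.10 to 0.14 for the transthyretin-like genes and 0.09 to 0.13 for the intestinal proteases, but -0.01 to 0.07 for the strut collagens and -0.12 to 0.03 for the heterochronic genes.

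**Figure D5:**
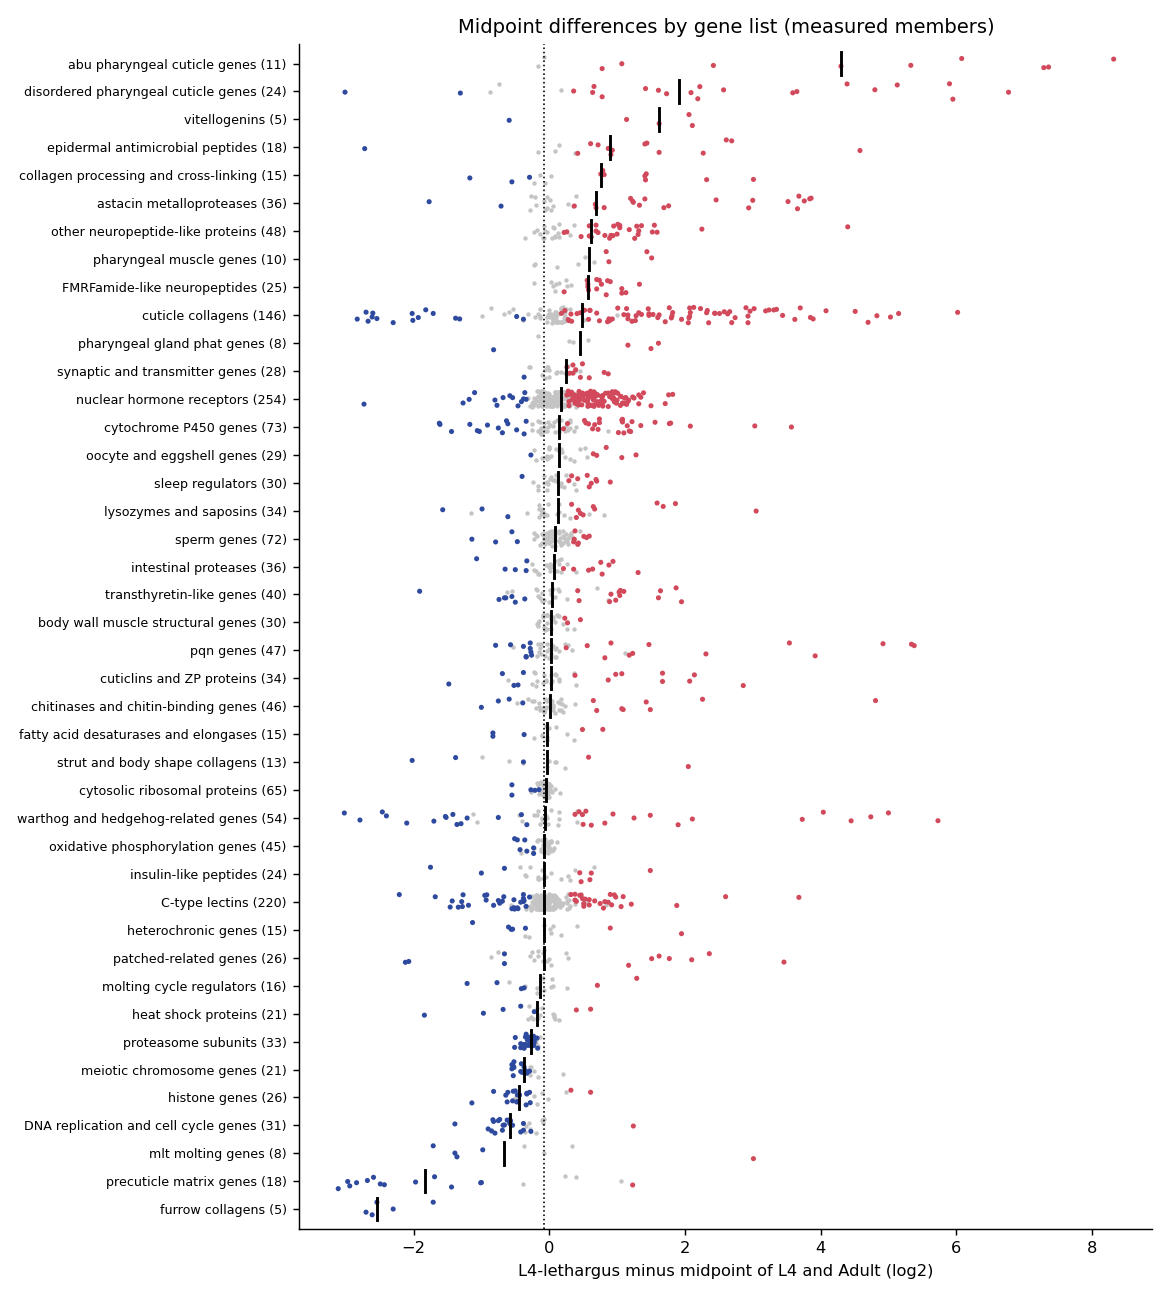
Lethargus minus midpoint difference (log2) of every measured member of 42 gene lists, with the number of members in brackets, red and blue points for members called above and below and grey for those not called. Black bars mark list medians and the dotted line the median of all genes, -0.07; the *abu* list lies furthest right with a median of 4.30 and the furrow collagens furthest left at -2.54.

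The straight course held genes of many kinds, and 8 in each direction had the largest Adult minus L4 difference. *F18E9.4* fell through the stages, with 10.32, 10.43, 10.32, 10.68 and 10.54 in L4, 8.06, 8.22, 8.41, 8.01 and 8.14 in lethargus and 5.82, 5.78, 5.59, 5.21 and 5.49 in Adult. No stage overlapped another, and lethargus differed from the midpoint by 0.15, with a 95% confidence interval of -0.07 to 0.37. *acn-1*, a protein related to angiotensin-converting enzyme that is needed for molting, had 12.16, 12.30, 11.74, 11.95 and 12.00 in L4, 11.18, 10.37, 10.10, 9.78 and 10.09 in lethargus and 8.48, 8.07, 8.55, 8.40 and 8.40 in Adult. Its stages did not overlap and its interval was -0.27 to 0.46, but its other probe set gave -0.75. *lin-42* had 10.45, 10.67, 10.36, 10.40 and 10.36 in L4, 9.39, 8.93, 9.10, 8.66 and 8.75 in lethargus and 7.51, 7.73, 7.62, 7.56 and 7.71 in Adult, again without overlap, with an interval of -0.29 to 0.15. Other steep falls on the course were *ZK154.1* (-0.35 to 0.40), *F07D3.3* (-0.15 to 0.42), *F44A6.5* (-0.12 to 0.49), *F17B5.1* (0.00 to 0.43), *F46F5.11* (-0.13 to 0.47) and the cytochrome P450 gene *cyp-23A1* (-0.31 to 0.42). The Adult means of *F07D3.3*, *F17B5.1*, *F46F5.11* and *cyp-23A1* and the lethargus mean of *F46F5.11* lay below the background bound, so the lower end of these courses is not measured. The other probe set of *cyp-23A1* gave -0.18 and that of *lin-42* -0.26. The troponin gene *tni-1* was called at 0.23 and still lay within the interval set for a straight course.

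Among rising genes, *dod-23* had 5.71, 5.46, 6.11, 5.86 and 5.52 in L4, 8.08, 7.82, 7.89, 7.99 and 7.95 in lethargus and 9.68, 10.31, 10.15, 10.21 and 9.94 in Adult. The stages did not overlap, and the interval of its difference was -0.19 to 0.29. *Y39B6A.10* had 5.34, 5.73, 6.02, 5.52 and 5.55 in L4, 7.45, 7.68, 7.66, 7.80 and 7.68 in lethargus and 9.48, 9.78, 9.73, 9.56 and 9.74 in Adult, also without overlap, with an interval of -0.20 to 0.22. The trypsin-like gene *try-1* had -0.37 to 0.39. *C04B4.2*, *R04D3.3*, the T-box gene *tbx-36*, *srdf-2.1* and *F02H6.2* met the rule too, but their L4 means lay below the background bound, so the lower end of their course is not measured. *srdf-2.1* and *F02H6.2* left the interval when any one of most arrays was left out, *srdf-2.1* with differences of -0.31 to -0.07 and *F02H6.2* of -0.24 to -0.01 over the 15 fits. *F44A6.5* left it without any one of L4 replicates 4 and 5, lethargus replicates 3 and 4 and Adult replicates 2 and 4, *F46F5.11* without L4 replicate 2, lethargus replicates 3 to 5 or Adult replicates 3 and 5, and *acn-1* without L4 replicate 2, lethargus replicates 3 to 5 or Adult replicate 3. Without lethargus replicate 4, *C04B4.2*, *tbx-36*, *ZK154.1* and *cyp-23A1* left it too, as did *C04B4.2* without lethargus replicate 5, *F07D3.3* without lethargus replicate 3, and *try-1* and *F17B5.1* without lethargus replicate 1. *F18E9.4*, *dod-23*, *Y39B6A.10* and *R04D3.3* met the rule in all 15 fits. A straight course on the log2 scale is not one on the linear scale. Against the midpoint of linear signals the 8 steepest genes in each direction and *lin-42* all lay below in lethargus and were called, with *F18E9.4* at -1.34 (adjusted p = 2.16e-07), *dod-23* at -1.18 (adjusted p = 2.8e-06), *acn-1* at -0.84 (adjusted p = 0.00343) and *lin-42* at -0.67 (adjusted p = 0.000229).

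How many genes count as early or late depends on where on the course lethargus is placed. With lethargus expected at 0.25 of the way between L4 and Adult rather than at the midpoint, 563 of the 1305 late falls and 528 of the 2275 late rises were still called in their direction, and all 281 early rises and 601 early falls were. With lethargus at 0.75 of the way, 102 of the early rises and 236 of the early falls were still called. Against the midpoint of linear signals 162 of the early rises were still called and 23 were called the other way, as were 2 of the late falls. Genes above both stages or below both lie by construction on the same side of every place between L4 and Adult, and all 1376 and all 763 were called at each place tried. All of these comparisons share the lethargus arrays.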

How the data were processed

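RNA of 15 pools of whole animals, 5 per stage, was amplified and measured with Affymetrix's C. elegans array, 1 pool per array. The deposited values are log2 signals that the authors made with RMA, per the submitters' processing notes; its version is not stated there, and nothing was changed before the tests. The array medians differ between stages, so the arrays as deposited do not share 1 distribution, and other scalings were tried as alternatives. Of 22625 probe sets 77 array controls were left out. Probe sets were named from the platform annotation: 20766 name 1 gene, 887 several and 895 none, and 20701 matched the reference table by gene ID. A gene was read from its probe set with the highest mean.

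Stage means were fitted over all 15 arrays with limma 3.58.1 in R 4.3.3, with the contrast lethargus minus the average of L4 and Adult and moderated variances (eBayes). P-values were multiplied by 2, as the series' design text describes, then adjusted by Benjamini-Hochberg over 22548 probe sets and called at 0.05 or less. Every adjusted p and call in the text is from this fit unless another setting is named with it. The background bound of 5.56 log2 is the 95th percentile of 32 control probe sets for transcripts of other organisms, and was chosen after the data were seen. A step on simulated data of 22548 probe sets recovered 70% of 50 changed by 1.5-fold, 92% at 2-fold, 100% at 4-fold and 98% at 8-fold. It gave 4 false calls among the unchanged probe sets, which all lay exactly at the midpoint. In the data 4092 probe sets were called above and 5340 below, far more than were changed in the simulation. The simulation therefore does not give the number of false calls among the real ones. Precision is limited by having 5 arrays per stage. The sources do not say whether pools came from separate cultures, so the p-values reflect only the variation among them, part of which may be technical.

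The gene lists and the genes were chosen with earlier results of these data known. Genes were named by rule: the 12 largest departures each way among genes whose lethargus arrays lie apart from the other 10, the 6 largest of each other shape, the 8 steepest on the course each way, up to 3 called members of each list, 8 genes of sleep and timing, and the cell type markers. *abu-12*, *abu-13*, *dbd-2*, *dbd-18*, *dpy-2*, *dpy-3*, *let-653*, *dex-1*, *phy-2*, *dpy-11*, *bli-4*, *vit-1*, *mcm-5* and *psf-1* were added after their values were seen. Replicate numbers were not treated as pairs in the main fit. Same-numbered pools had correlations of -0.24 to 0.132 between their deviations from stage means. Such values show no strong shared effect, but they cannot tell whether those pools were collected or handled together.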

Additional observations from a re-analysis of the deposited data

Results flagged for a closer look

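Of 618 groups of 5 arrays, each the values of 1 gene in 1 stage, 47 had 1 array farther from its nearest neighbour than a range test at the 95% level allows, and chance alone gives about 1 in 20. The mean correlation of an array with the others of its stage was also lowest by such a gap for lethargus replicate 1, at 0.987, and for Adult replicate 2, at 0.987.

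L4 replicate 2 lay above the other 4 arrays of its stage for *lin-42* at 10.67, and below them for *T07D10.3* at 4.78, *phat-4* at 8.06, *doxa-1* at 6.11 and *snb-1* at 10.69 (log2). L4 replicate 3 lay above the other 4 arrays of its stage for *col-91* at 8.14, *F54F7.3* at 6.23, *col-88* at 9.97, *col-156* at 8.88, *pqn-54* at 7.43, *pqn-74* at 9.55, *pqn-63* at 7.52, *grl-27* at 7.43 and *nlp-25* at 11.19, and below them for *vha-6* at 11.16 (log2). L4 replicate 5 lay above the other 4 arrays of its stage for *cyp-33C5* at 8.39 and *tbx-37* at 3.92 (log2). Lethargus replicate 1 lay above the other 4 arrays of its stage for *spe-9* at 7.25, and below them for *grl-21* at 9.87, *col-19* at 12.77, *col-81* at 12.76, *piit-1* at 3.96, *vit-5* at 12.30, *lin-3* at 7.12 and *oma-1* at 7.78 (log2). Adult replicate 1 lay below the other 4 arrays of its stage for *C26B9.7* at 3.69 and *cyp-32A1* at 6.64 (log2).

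Adult replicate 2 lay above the other 4 arrays of its stage for *dpy-9* at 7.86, *ptr-10* at 3.78, *cht-6* at 6.09, *flp-4* at 8.48, *ins-18* at 8.26, *cyd-1* at 7.14 and *cpr-8* at 10.42, and below them for *col-19* at 12.82, *try-1* at 9.81, *F02H6.2* at 7.95, *myrf-1* at 5.76, *nhr-23* at 8.36, *snt-1* at 6.69, *perm-2* at 12.74, *pas-7* at 9.19 and *lin-3* at 7.93 (log2). Adult replicate 4 lay below the other 4 arrays of its stage for *skpo-3* at 10.52 (log2). Adult replicate 5 lay above the other 4 arrays of its stage for *dbd-20* at 6.34, *dbd-13* at 7.63 and *grl-21* at 8.10 (log2). The part that single pools play in the departures was not tested beyond the fits that leave out 1 array.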

How the results depend on the processing

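The tally of named genes left out the 1 log2 size, the other places of lethargus on the course and the linear midpoint. Over the remaining alternatives, 5503 values of named genes kept their direction and their side of the threshold. Another 114 lost and 18 gained it, and 21 changed sign. Against the linear midpoint, calls of several named genes changed, as given above. Of the counts of probe sets 133 stayed within 1.5 times and 13 did not. Median-centring gave 9508 probe sets below the midpoint and 1757 below both stages. Requiring 1 log2 unit gave 1415 above, 605 below, 1048 above both and 224 below both, fewer by construction. Without shared-probe probe sets, with fewer probe sets tested, 3387 lay below, 632 below both and 713 on the course. Lethargus placed at 0.25 of the way gave 3490 below and 1867 on the course, and at 0.75 of the way 445 on the course. Array quality weights put 1674 on the course. For median-centring, the weights and the placed course the cause was not tested.

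Leaving out 1 array at a time gave 3745 to 4484 above, 4478 to 6108 below, 1576 to 1916 above both, 798 to 1266 below both and 910 to 1317 on the course. With the replicate number as a block, 3927 lay above, 4943 below, 1649 above both, 881 below both and 1093 on the course, all within 1.5 times. The block took *F44A6.5*, *srdf-2.1* and *F02H6.2* off the course. Whether the numbers pair the pools is not stated in the labels read here.

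Genes near 0 that were not called changed sign: *myo-3* to -0.12 after median-centring and -0.08 after the shift to hybridisation controls, *snb-1* to -0.05 and -0.01 under the same and -0.09 on its most variable probe set, and *end-1* to -0.04 after median-centring and -0.03 without both arrays that stand apart. Cyclic loess gave 0.01 for *lin-42*, 0.01 for *unc-54*, 0.02 for *unc-15*, 0.06 for *rol-6* and 0.00 for *tbx-37*. With 1 array left out the ranges were -0.10 to 0.01 for *nlp-22*, -0.18 to 0.01 for *lin-42*, -0.02 to 0.09 for *myo-3*, -0.06 to 0.00 for *unc-15*, -0.36 to 0.36 for *rol-6*, -0.08 to 0.01 for *tbx-37* and -0.02 to 0.20 for *end-1*. *unc-60*, *vha-6* and *lon-3* lost their calls without several single arrays, *spe-11*, *tnt-3*, *tni-1* and *unc-60* after median-centring, and *myo-1* gained one without L4 replicate 5, lethargus replicate 2 or 5 or Adult replicate 2.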

Other observations

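The shapes were not spread evenly over the chromosomes. Genes above both stages made up 12.5% of the 2353 genes of chromosome X and 9.68% of the 4317 of chromosome V, against 5.63% of the 2469 of chromosome I and 5.86% of the 2253 of chromosome III. Late falls were 11.5% of chromosome X and 5.10% of chromosome I. Late rises ran the other way, at 7.52% of chromosome X, 18.5% of chromosome I and 18.3% of chromosome III. Troughs were 3.20% to 5.19% of the genes of each chromosome. These shares are descriptions, and no test of them was run. Genes known only by a sequence name were 49.1% of the early falls, 45.3% of the genes on the course, 41.1% of those above both stages, 36.0% of those below both and 35.5% of the late rises, against 39.2% of all genes.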
